A study of Macaca mulatta with 5 samples.

Results

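Intercalated cells are the acid-base regulating cells of the connecting tubule and collecting duct, and in the single-cell data on fetal rhesus kidney they carried 2 cluster names, Intercalated cell c9 and Intercalated cell c11. Members were all cells to which the study gave 1 of these names in the 5 rhesus libraries that could be matched to a sample label. That gave 950 cells of 36039, of which 302 were c9 and 648 were c11.

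Intercalated cells of the collecting duct arise in the branching ureteric tree, the lineage that also gives its principal cells, which take up sodium and water. The transcription factor FOXI1 is needed for their differentiation. Their defining products include ATP6V1B1, a subunit of the proton pump of their apical or basolateral membrane, and, in the acid-secreting type, SLC4A1, an anion exchanger that returns bicarbonate to the blood. A base-secreting type carries the exchanger SLC26A4 in its apical membrane. The deposited table holds 0 columns of gene values, so the label could not be checked against FOXI1, ATP6V1B1 or SLC4A1, and nothing in the table says whether c9 and c11 correspond to the known types.

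The study profiled cortex-enriched cells of fetal macaque kidneys from the late second and the third trimester, when nephrons are still forming, by droplet single-cell RNA sequencing. Libraries 600 and 628 came from hand-dissected cortex that was digested with a cold-active enzyme mix, and the labels name 2 donor kidneys for this pair. For libraries 623, 627 and 632 the tissue was vortexed in a cold B mix, labelled Bacillus licheniformis, which biases the suspension to the cortex. The libraries held 6839 (600), 6329 (628), 9816 (623), 10502 (627) and 2553 (632) cells. Sequencing depth is unknown because the table has no counts per cell. The labels give neither age nor sequencing batch per library, so these cannot be told apart from the preparation. The labels do not state that every library is from its own animal, so p-values measure the spread between libraries, which may be technical. The human cells and the other libraries of the table were not analysed here, so the species balance of the clusters is not given.

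Intercalated cells were a small population in every library, and library 600 held the most. They made up 6.51% of the cells of library 600 (exact 95% binomial interval, 5.93 to 7.12) and 2.45% of library 628 (2.08 to 2.86). In the vortexed libraries they made up 2.03% of library 623 (1.76 to 2.33), 1.02% of library 627 (0.836 to 1.23) and 1.72% of library 632 (1.25 to 2.31). Both dissected libraries thus lay above all 3 vortexed libraries. The intervals cover counting error only. Of the 950 cells, 7 carried a barcode sequence that also occurred in another of these libraries, and no full cell identifier was repeated.

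The 2 clusters did not share this pattern equally. The c9 share was 3.38% in library 600 (exact 95% interval, 2.96 to 3.83), 0.253% in library 628 (0.145 to 0.410), 0.244% in library 623 (0.157 to 0.364), 0.162% in library 627 (0.0943 to 0.259) and 0.548% in library 632 (0.300 to 0.918). Library 600 stood alone, and the other dissected library lay among the vortexed ones. The c11 share was 3.13% in library 600 (2.73 to 3.57), 2.20% in library 628 (1.85 to 2.59), 1.78% in library 623 (1.53 to 2.06), 0.857% in library 627 (0.690 to 1.05) and 1.18% in library 632 (0.794 to 1.67). Here both dissected libraries were higher than the 3 vortexed ones.

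**Figure D1:**
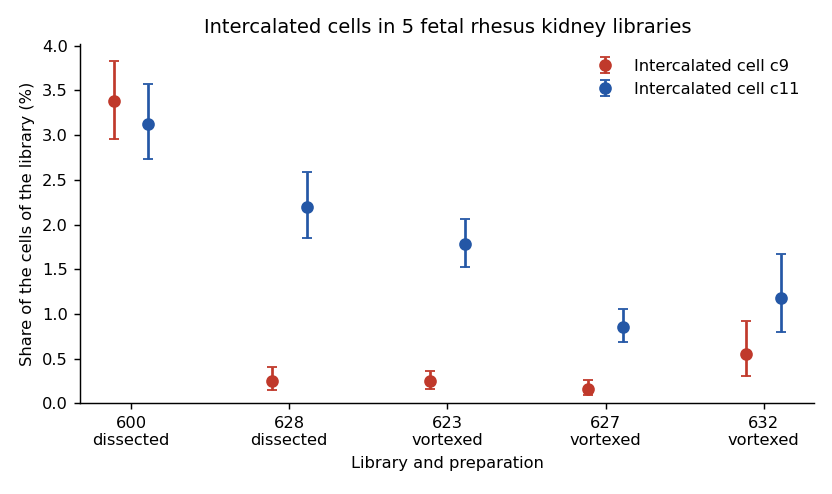
Share of each library's cells (vertical axis, percent) named c9 or c11, for the 5 libraries (horizontal axis); points are the shares and bars the exact 95% binomial intervals. The c9 share is 3.38% in library 600 and at most 0.548% elsewhere, while c11 ranges from 0.857% to 3.13%.

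By the mean over libraries, c11 made up 1.83% ± 0.894 (SD, n = 5) and c9 0.917% ± 1.38 (SD, n = 5), so that the spread of c9 exceeded its mean. Among 37 clusters ordered by mean share, c11 was number 19, just below Thick ascending limb c12 (2.15%) and just above Epithelial c23 (1.68%). Cluster c9 was number 25, between Distal convoluted tubule c10 (0.932%) and Monocyte c34 (0.883%), and all of these neighbours in the order differed by less than the SD of c9 or c11. Without library 600, c9 averaged 0.302% ± 0.169 (SD, n = 4) and was number 31, while c11 averaged 1.503% ± 0.601 and was number 21.

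Cluster c9 owed more of its cells to 1 library than any other of the 37 clusters. Library 600 supplied 76.5% of c9 cells, although it held 19.0% of all cells. The same library supplied 33.0% of c11 cells. Over all clusters, the largest contributing library supplied a median of 38.8% of the cells. The extreme libraries differed 20.9-fold in c9 share and 3.65-fold in c11 share, against a median of 5.04-fold over the 35 clusters with cells in every library. Without library 600, the range of c9 narrowed to 3.39-fold and that of c11 to 2.56-fold.

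**Figure D2:**
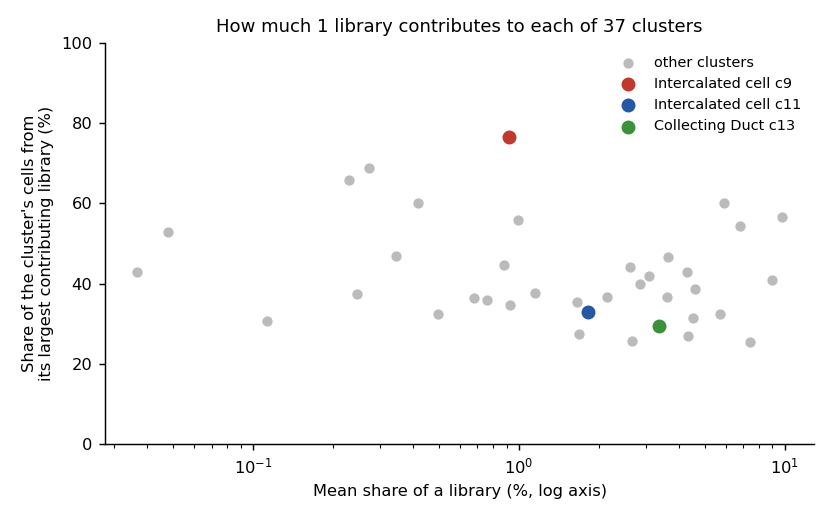
Share of a cluster's cells that came from its largest contributing library (vertical axis, percent) against its mean share of a library (horizontal axis, percent, log scale), for 37 clusters. Cluster c9 lies highest, at 76.5%, while c11, at 33.0%, lies below the median of 38.8%.

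Within a library, c11 cells outnumbered c9 cells in 4 of 5 libraries. Library 600 was the exception, with 231 c9 and 214 c11 cells. The counts of c9 and c11 were 16 and 139 in library 628, 24 and 175 in library 623, 17 and 90 in library 627 and 14 and 30 in library 632. The mean log2 ratio of c9 to c11 was -1.88 ± 1.36 (SD over 5 libraries). An exact test over all 32 sign patterns (two-sided) gave p = 0.125 and a Benjamini-Hochberg adjusted p of 0.1875 over 3 ratios, and the smallest p it allows is 0.063. As a share of intercalated cells, c9 made up 51.9% in library 600 (exact 95% interval, 47.2 to 56.6) and 10.3% in library 628 (6.02 to 16.2), the highest and the lowest value of the series. Libraries 623, 627 and 632 gave 12.1%, 15.9% and 31.8%. The pair prepared by dissection therefore spanned the whole range of the c9 to c11 balance.

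The 2 clusters also differed in how they followed the Collecting Duct cluster c13, the name given to the other cells of the duct. The number of c11 cells per c13 cell was 0.658 in library 600, 0.408 in library 628, 0.581 in library 623, 0.692 in library 627 and 0.492 in library 632, a range of 1.70-fold. The number of c9 cells per c13 cell was 0.711, 0.0469, 0.0797, 0.131 and 0.230 in the same order, a range of 15.1-fold, or 4.89-fold without library 600. Thus c11 stayed within a narrow band relative to the duct, and c9 did not. The difference between these ranges was not tested. Relative to Distal convoluted tubule c10, the segment upstream of the connecting tubule, c9 ranged from 0.291 to 2.22 cells per cell and c11 from 1 to 3.18. Without library 600, the range of c9 over c10 was 1.60-fold and that of c11 over c10 3.18-fold, the opposite order. Over the 2 other distal clusters, c9 had the wider range without library 600, as it had over c13. It was 7.94-fold for c9 and 3.55-fold for c11 over Thick ascending limb c12. Over Loop of Henle c15 it was 7.24-fold and 2.24-fold.

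Taking both clusters together, intercalated cells made up 57.8% of the duct cells (c9, c11 and c13) in library 600 (exact 95% interval, 54.2 to 61.3), 31.3% in library 628 (27.2 to 35.5), 39.8% in library 623 (35.5 to 44.2), 45.1% in library 627 (38.7 to 51.7) and 41.9% in library 632 (32.3 to 51.9). The vortexed libraries lay between the 2 dissected ones. The mean log2 ratio of intercalated to c13 cells was -0.41 ± 0.58 (SD, n = 5), or -0.62 without library 600 and -0.22 without library 628 (exact p with all libraries, 0.1875, adjusted p = 0.1875). Against the distal nephron (Loop of Henle c15, Thick ascending limb c12 and Distal convoluted tubule c10 together), intercalated cells were fewer in 5 of 5 libraries. The ratio was 0.989 in library 600, where the 2 counts were 445 and 450, and 0.332 in library 628, 0.734 in library 623, 0.728 in library 627 and 0.571 in library 632. On the log2 scale this ratio averaged -0.66 ± 0.59 (SD, n = 5), or -0.43 without library 628, with the smallest exact p possible, 0.063, and an adjusted p of 0.1875.

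The comparison of hand dissection with vortexing found no difference that passed the threshold for either cluster. With limma fitted to log2 odds of the shares, c9 gave a difference of 1.73 (dissected minus vortexed, SE 1.15, 95% interval -0.95 to 4.41, adjusted p = 0.511) and c11 gave 1.12 (SE 0.68, -0.46 to 2.71, adjusted p = 0.511). At an adjusted p of 0.05, 0 of the 37 clusters passed (0%), and 5 had an unadjusted p below 0.05 (13.5%), with neither c9 nor c11 among them. The median difference over all clusters was 0.25. The c11 share was higher in both dissected libraries than in all vortexed ones, which held for 11 of the 37 clusters in all (29.7%), c11 included. Collecting Duct c13, Thick ascending limb c12 and Loop of Henle c15 were among them. Within the duct cells (c9, c11 and c13) the dissected libraries were the lower ones, by a margin within counting error. There c11 made up 27.8% and 28.0% in the dissected and 28.6% to 38.0% in the vortexed libraries. The exact 95% intervals of library 628 (24.1 to 32.2) and library 632 (20.2 to 38.2) overlapped. This order was not tested. The c9 shares of all cells overlapped.

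The c9 difference rested on library 600. Without it the value turned to -0.14 (limma adjusted p = 0.969), and without library 628 it was 3.61 (limma adjusted p = 0.0862). The joint share averaged 4.48% ± 2.87 (SD, n = 2) in dissected and 1.59% ± 0.517 (SD, n = 3) in vortexed libraries, a difference of 2.89 points (exact two-sided permutation test over 10 splits, p = 0.1, the smallest possible, Benjamini-Hochberg adjusted p = 0.3 over 3 comparisons), or 0.859 points without library 600 and 4.92 without library 628. The c9 share of intercalated cells differed by 11.2 points (exact permutation p = 0.7, adjusted p = 0.8), and by -9.60 without library 600. The intercalated share of duct cells differed by 2.24 points (exact permutation p = 0.8, adjusted p = 0.8), and by -11.0 without library 600. The difference in c9 among intercalated cells also moved by over 1.5 times to 7.26 points without library 623, 17.1 without 632 and 31.99 without 628. That in the duct share moved as far to 0.995 points without library 623, 15.5 without 628 and 3.67 without 627.

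The authors' UMAP embedding, a two-dimensional layout with arbitrary units in which similar cells are drawn close together, placed intercalated cells in separate places. Linking all cells closer than 0.75 units gave 6 groups, the largest with 93.3% of all cells. One small group, called the island here, held 468 cells, and 88.7% of these were named intercalated. It contained 266 c9, 149 c11 and 42 Collecting Duct c13 cells, and only 11 cells of any other name. No cell outside it came closer than 1.74 units. The remaining 535 intercalated cells lay elsewhere in the layout. The island was defined after the positions had been seen, and since names and positions come from the same cells and the integrated data, these values are descriptions with no test.

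**Figure D3:**
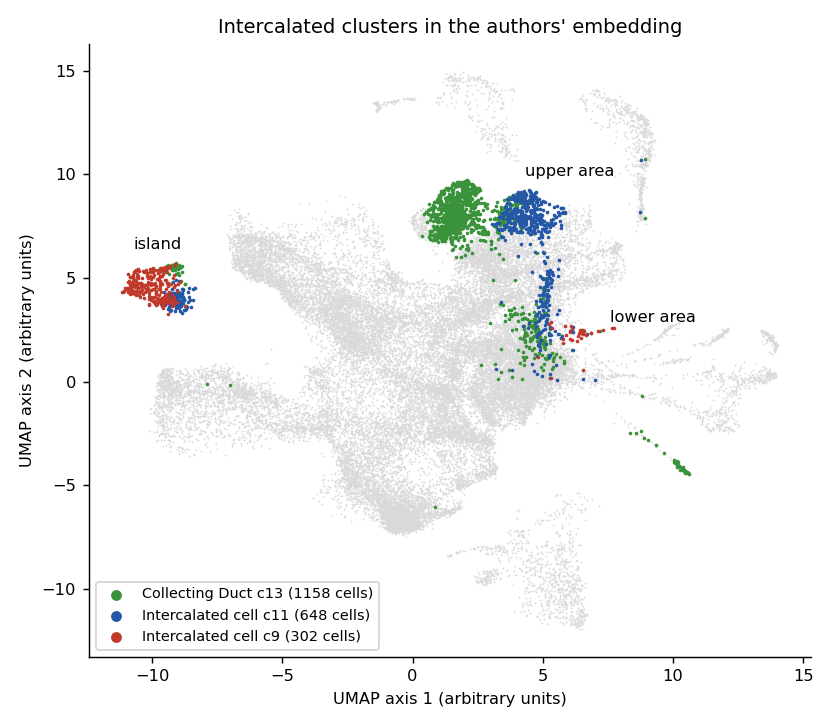
Position of every cell of the 5 libraries in the authors' UMAP embedding (both axes in arbitrary units), with c9, c11 and Collecting Duct c13 coloured and all other cells grey. The island at the left holds 266 of 302 c9 cells and 149 of 648 c11 cells, and most other c11 cells lie in the upper area beside c13.

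Most c9 cells lay in the island in every library. The share was 92.6% in library 600, 68.8% in library 628, 70.8% in library 623, 76.5% in library 627 and 78.6% in library 632. The other 36 c9 cells lay in the lower area, which is every position below 6 on the second axis outside the island. Their median position was 6.43 and 2.36 on the 2 axes, and every library had between 3 and 17 cells there. The medians of the libraries ran from 6.12 to 6.55 on the first axis and from 2.12 to 2.54 on the second. The spread of these cells around the medians was not measured. With the libraries pooled, 40% of their nearest differently named cells were Thick ascending limb c12 and 24.1% were c11. No c9 cell lay in the upper area, defined as a position of at least 6 on the second axis outside the island.

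Cells of c11 lay in the island, the upper area and the lower area. Only the island was set by linkage. The line at 6 between the upper and the lower area was a chosen cut, and no other cut was tried. Of the 648 c11 cells, 55.1% lay in the upper area, 23.0% in the island and 21.9% in the lower area. The island share of c11 differed widely, with 50% in library 600, 23.0% in library 628, 3.43% in library 623, 1.11% in library 627 and 10% in library 632. Both dissected libraries lay above all vortexed ones. The lower area went the other way, with 9.35% and 10.8% in the dissected and 37.1%, 26.7% and 60% in the vortexed libraries. The upper area overlapped, at 40.7%, 66.2%, 59.4%, 72.2% and 30% in the order 600, 628, 623, 627 and 632. Library 632 has only 30 c11 cells, and the island held 6 c11 cells of library 623, 1 of library 627 and 3 of library 632. The 3 shares add up to the whole, so their separations between preparations are not independent, and they were not tested. The lower-area share of Collecting Duct c13 was likewise lower in the dissected libraries (12.6% and 9.38%) than in the vortexed ones (24.9% to 33.8%). For c9 it overlapped. Such separations by area were not counted over the other clusters, so how common they are is unknown.

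The island and the other intercalated cells varied differently between libraries. Island cells named c9 or c11 made up 4.69% of library 600, 0.679% of library 628, 0.234% of library 623, 0.133% of library 627 and 0.548% of library 632, a 35.2-fold range, or 5.10-fold without library 600. Intercalated cells outside the island made up 1.81%, 1.77%, 1.79%, 0.886% and 1.18% in the same order, a range of 2.05-fold, or 2.02-fold without library 600. Library 600 was thus close to libraries 628 and 623 outside the island, and its surplus of intercalated cells lay within it. Island cells made up 72.1% of the intercalated cells of library 600, against 11.6% to 31.8% in the other 4 libraries. Library 600 also supplied 37 of the 42 Collecting Duct c13 cells in the island.

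**Figure D4:**
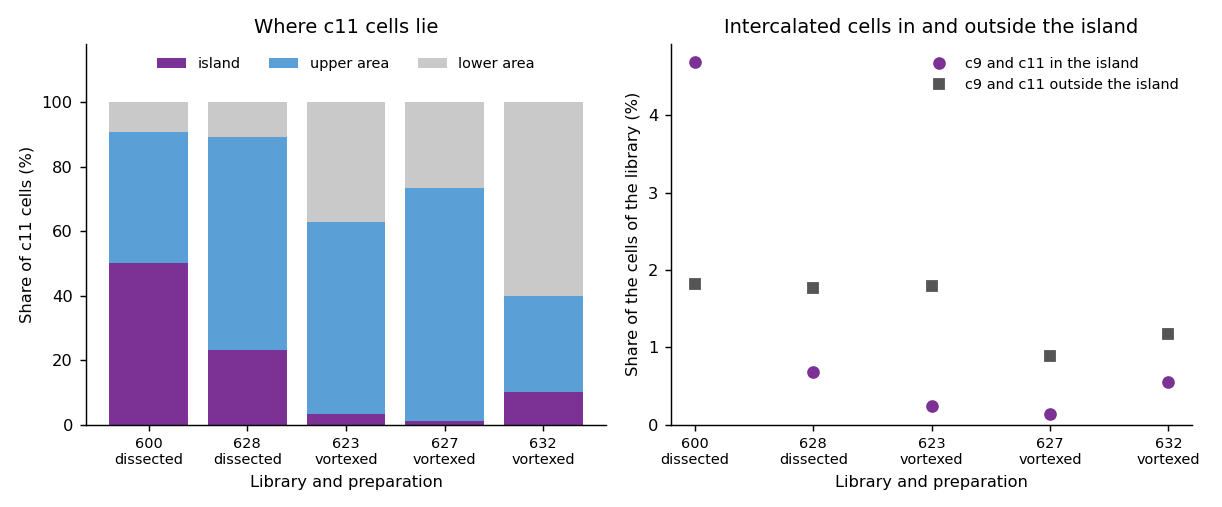
Left, share of c11 cells (percent) in the island, the upper area and the lower area for each library. Right, c9 and c11 cells in and outside the island as a share of all cells of the library (percent); outside the island the 5 libraries lie between 0.886% and 1.81%, and inside it between 0.133% and 4.69%.

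Inside the island, the median position was -9.94 and 4.52 on the 2 axes for c9 and -9.08 and 3.96 for c11. Of the 15 nearest cells of an island c9 cell, leaving out clusters named by cell cycle phase, cells also named c9 made up 85.6% in library 600, 35.2% in library 628, 80% in libraries 623 and 627 and 66.7% in library 632. Libraries 627 and 632, with 13 and 11 island c9 cells, stood at the highest values that these counts allow within the island, 80% and 66.7%. Library 628 was the lowest, although its 11 island c9 cells allow up to 10 own-name neighbours of 15, as in library 632. For island c11 cells, own-name cells made up 81.6% in library 600 and 87.9% in library 628, the 2 libraries with at least 10 such cells. The balance of the 2 names in the island was not the same in all libraries. Of the island cells named intercalated, c9 made up 66.7% in library 600 (exact 95% interval, 61.2 to 71.8), 25.6% in library 628 (13.5 to 41.2), 73.9% in library 623 (51.6 to 89.8), 92.9% in library 627 (66.1 to 99.8) and 78.6% in library 632 (49.2 to 95.3). Library 628, with 11 c9 and 32 c11 cells there, was the only one in which c11 outnumbered c9. These shares rest on 14 to 43 cells in 4 of the libraries.

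The nearest cells with another name differed between the clusters. Around each cell the 15 closest differently named cells from its own library were counted, leaving out clusters named by cell cycle phase. A library was used where it had at least 20 cells of the cluster, which for c9 left libraries 600 and 623. In library 600, c11 made up 56.3% of these neighbours (3.43% of all cells that could be neighbours) and c13 made up 24.9% (5.21%). In library 623, c11 made up 28.9% (2.13%) and c13 5.56% (3.66%), while Proximal tubule c7 made up 35.3% (5.83%). The island of library 623 held only 7 cells not named c9, fewer than the 15 neighbours taken, so neighbours there also came from across the gap. With 5 neighbours in place of 15, the mean share of c7 over the 2 libraries was 5.56% in place of 19.3%, and that of c11 was 56.1% in place of 42.6%.

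For c11, the most frequent name nearby was Interstitial Cell Lineages c16, a cluster with a stromal name. It made up 28.3% ± 8.39 of the neighbours (SD, n = 5), against 8.43% of the cells that could be neighbours, with a range of 18.6% to 41.3%. Collecting Duct c13 followed with 17.7% ± 12.7 (against 3.92%), then c9 with 14.97% ± 18.5 (against 1.02%) and Distal convoluted tubule c10 with 13.8% ± 10.4 (against 1.07%). Each of these 4 names was above its share of possible neighbours in all 5 libraries. The shares moved with the library. The c9 share of c11 neighbours was 46.1% in library 600, 17.4% in library 628, 3.09% in library 623, 0.741% in library 627 and 7.56% in library 632. Without library 600 its mean was 7.20%. The libraries had the same order in the island share of c11. This match is not a separate observation, since 266 of 302 c9 cells lay in the island and none in the upper area. The c13 share was 16.9%, 32.9%, 27.8%, 4.296% and 6.44% for libraries 600, 628, 623, 627 and 632, and thus low in the 2 libraries with the fewest c13 cells.

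**Figure D5:**
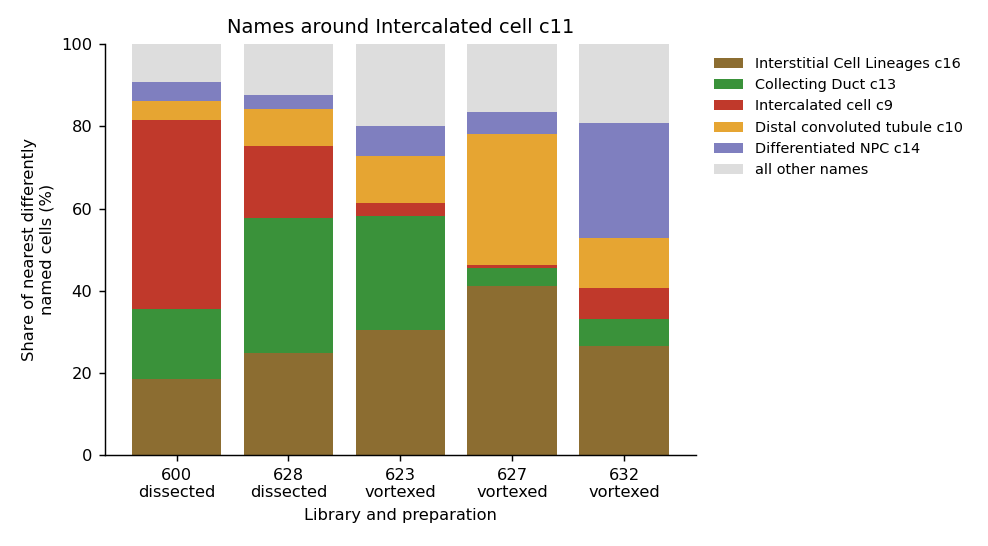
Names of the 15 nearest differently named cells of c11 (stacked bars, percent of neighbours) in each library. Interstitial Cell Lineages c16 makes up 18.6% to 41.3%, Intercalated cell c9 46.1% in library 600 and 0.741% in library 627, and Distal convoluted tubule c10 31.7% in library 627.

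The surroundings of c11 differed between the island, the upper area and the lower area. These areas and the neighbours come from the same positions, so part of this difference was fixed by the cut. In the island, 89.9% of the nearest differently named cells were c9, with the libraries pooled. In the upper area, 45.5% ± 7.46 (SD, n = 4 libraries with at least 20 cells there) were c16, 31.8% ± 19.2 were c13 and 18.5% ± 13.5 were c10. The c10 share was 38.6% in library 627 and the mean without that library was 11.8%. In the lower area the neighbours were mixed, with 17.2% ± 4.41 (SD, n = 3) Differentiated NPC c14, a cluster named for cells leaving the nephron progenitor state, 16.6% ± 3.14 Thick ascending limb c12, 12.3% ± 5.602 Loop of Henle c15 and 11.2% ± 3.22 c10. Cluster c14 was named after its values had been seen. Cells of c11 in the lower area were also the least surrounded by their own name (libraries with at least 10 such cells), at 10% to 30.97% of the 15 nearest cells, against 51.4% to 71.9% in the upper area and 81.6% and 87.9% in the island of libraries 600 and 628.

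In libraries 600 and 623, the nearest cells of c9 carried its own name more often than those of c11 did. Own-name cells made up 82.7% and 59.7% of the nearest cells of c9 in libraries 600 and 623. For c11 they made up 68.3%, 55.8%, 52.3%, 56.1% and 15.1% in libraries 600, 628, 623, 627 and 632, a mean of 49.5% ± 20.2 (SD, n = 5), against a median of 56.7% over 34 clusters with enough cells. Library 632 was the lowest, and it also had the fewest c11 cells. Of c11 cells, 28.4% lay more than 5 units from the median position of the cluster, and of c9 cells 11.9%, against a median of 5.26% over all clusters. By this measure c11 ranked number 7 and c9 number 17 of 37. The measure pools the libraries, and library 600 supplied 76.5% of c9 cells. The far c9 cells were those outside the island, 7.36% in library 600 and 21.4% to 31.3% in the other libraries. Island c11 cells, all far by this measure, made up 50% of c11 in library 600 and 1.11% to 23.0% elsewhere. The order of c9 and c11 by this measure may therefore rest on library 600, and it was not computed without that library.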

How the data were processed

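Per the labels' protocols, single cells were profiled with the 10x Genomics 3' chemistry. The submitters' processing notes name Cell Ranger 6.0.1, Seurat and hg19 without saying what each was used for. Not given in the sources used here is how cells were filtered, doublets treated, or libraries integrated and clustered. The authors' deposited file has a row per cell with the authors' cluster name, library, species and embedding position. Rows were used where the library name matched a sample title (5 libraries); 11 other library names were not used. Counts of cells per cluster and library were made from these rows, and shares have exact 95% binomial intervals. Preparations were compared with limma 3.58.1 (R 4.3.3) on log2 odds with 0.5 cells added, over clusters with at least 10 cells, Benjamini-Hochberg adjusted. This step was run on simulated data with less noise than observed and with larger differences than those of c9 and c11. Its power at the observed spread was therefore not tested. Single values used exact permutation or sign-flip tests (Python 3.11.15). Neighbours were found in the embedding within a library. The members, clusters and tests were chosen with earlier results of these data known. Clusters were named by rule: c9, c11, the duct and distal clusters, clusters holding at least 10% of the neighbours, and those adjacent in mean share. Alternatives covered the transform, denominator, filter, number of neighbours and each library left out.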

Additional observations from a re-analysis of the deposited data

Results flagged for a closer look

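Of 24 values given per library, 5 had 1 library far from the other 4, by a gap to the nearest library of over 0.71 of the whole range. Chance alone marks about 5% of such sets. The values are not independent, since several count the same cells. Library 600 stood apart in the share of c9 (3.38% of its cells), in the share of both intercalated clusters (6.51%) and in the share of intercalated cells in the island (4.69%). Its share of c11, 3.13%, was not marked. Library 627 stood apart in the share of Distal convoluted tubule c10 among the neighbours of c11 (31.7%), and library 632 in that of Differentiated NPC c14 (28%), which rests on 30 c11 cells.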

How the results depend on the processing

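Of 146 values recomputed under another setting, 142 kept their direction and their side of the threshold or, for values with no test, moved by less than 1 SD between libraries. The 3 that reversed did so without library 600. Much of this count was fixed in advance. The exact permutation and sign-flip tests cannot reach 0.05 with so few libraries, so only the direction of their values could change. For values with no test, leaving out 1 library cannot move the mean by 1 SD. The setting with no filter repeated the main one, because every cluster had at least 10 cells. The count is therefore not a measure of stability. Over libraries left out in turn, the log2 odds difference ranged from -0.14 (without 600) to 3.61 (without 628) for c9 and from 0.86 to 1.40 for c11. The difference in c9 share of intercalated cells ranged from -9.60 (without 600) to 31.99 points, and that in intercalated share of duct cells from -11.0 (without 600) to 15.5 points. With 1 dissected library left, limma assumes that it varies like the others. Own-name cells around c9 made up 50.8% with 50 neighbours in place of 71.2% with 15. Neighbours of c9 came from libraries 600 and 623, so only these could be left out there. Island membership was 468 cells at a linkage of 0.5, 0.75 or 1 unit. Counting only island cells, the joint share differed by 2.38 points between preparations, and outside the island by 0.507 points. Both counts were chosen after seeing the data, and neither difference was recomputed without library 600. Island intercalated cells made up 4.69% of library 600, 0.679% of library 628 and 0.133% to 0.548% of the vortexed libraries. No cluster passed an adjusted p of 0.05 in limma under any setting run, and 2 to 7 had an unadjusted p below 0.05. No paired analysis was possible because the preparations share no library number. Depth is unknown, and 0 cells in library 632 would allow a share of up to 0.118%.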

Other observations

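Seen from the duct, the relation was uneven. Among the nearest differently named cells of Collecting Duct c13, c11 made up 10.4% ± 7.66 (SD, n = 5; 2.17% of possible neighbours) and c9 2.51% ± 4.17 (1.04%). The c9 value rested on library 600, with 9.91%. Without it the mean was 0.662%, and in library 628 the share, 0.0196%, lay below that of possible neighbours, 0.312%. The most frequent names there were Cap mesenchyme c30, the condensed progenitors around the ureteric tips, at 36.9% ± 19.0 (4.40%), and Interstitial Cell Lineages c16 at 30.6% ± 24.1 (8.56%). Library 632 gave 72.8% for c16, and without it the mean was 20.1%. Of c13 cells, 3.63% lay in the island, 78.2% in the upper area and 18.2% in the lower area.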
